A study of Mus musculus with 20 samples.

Results

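Skint genes (selection and upkeep of intraepithelial T cells) lie side by side on mouse chromosome 4 and encode membrane proteins of the immunoglobulin superfamily that resemble butyrophilins. They are expressed mainly in skin and thymic epithelium, and Skint1, the founding gene, is needed for the development of the gamma delta T cells that populate the mouse epidermis. The genes arose by duplication, and related genes of this kind often differ in copy number between mice. DNA copy number of 5 of them, Skint3, Skint4, Skint5, Skint6 and Skint9, was examined on arrays of 20 mouse mesotheliomas, together with all probes of a 2 Mb stretch that holds the cluster (chr4:111500000-113500000, mm9). The genes had been selected on measured values, because their tumour over kidney ratios differed between the WT_plain tumours and the Ogg1KO and Mth1KO tumours in an earlier look at the same data, so those differences are described here and not tested. The members were 5 of 21138 gene names on the array and were read by 94 probes, and the stretch held 140 of 170305 probes. All 5 had at least 3 probes, the minimum for the tests across genes.

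The tumours were peritoneal mesotheliomas, which arise from the membrane around the abdominal organs, in mice given crocidolite, an iron-rich asbestos fibre, as 2 intraperitoneal doses of 1.5 mg (3 mg in all) at the ages of 6 and 7 weeks and followed for 600 to 700 days. There were 4 wild-type tumours labelled as the counterpart of the Dmt1 line (WT_Dmt1), 4 from mice with a transgene of the iron transporter Dmt1 (Dmt1Tg), 3 from a separately labelled wild-type set (WT_plain), and, with 3 tumours per knockout, MutyhKO, Ogg1KO and Mth1KO, whose missing enzymes act against oxidised guanine in DNA or in the nucleotide pool. Each array compared tumour DNA (Cy5) with DNA of non-neoplastic kidney (Cy3) that was labelled C57BL/6 and as having the tumour's genotype. Whether a kidney came from the same animal as its tumour, and which promoter drives the transgene, was not given in the labels. Nothing in the labels says that tumours of a group came from separate animals, so the spread within a group is the spread between these samples.

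Scanning took 2 days and covered 5 slides. On the first day slide 1 carried all WT_Dmt1 tumours and slide 2 all Dmt1Tg tumours. On the second day slide 3 held the WT_plain tumours and MutyhKO 1, slide 4 held MutyhKO 2, MutyhKO 3, Ogg1KO 1 and Ogg1KO 2, and slide 5 held Ogg1KO 3 and the Mth1KO tumours. Patches of the array surface with shifted ratios took up 6.76% of spots on WT_plain 1, 4.66% on WT_plain 2 and 0.14% on MutyhKO 1, and spots in them were left out. These patches held 9 of the 98 member spots on WT_plain 1, 8 on WT_plain 2 and 0 on MutyhKO 1. MutyhKO 1, Ogg1KO 3 and Mth1KO 1 stood apart over the whole array: kidney signal was well above background at 97.2%, 97.7% and 95.7% of spots there, against 73.4% to 85.7% on the other arrays of that day. The same 3 arrays stand apart at the Skint genes below, and the part of this brightness in those results was not tested.

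In chromosomal order the named genes were Spata6, which acts in sperm development, Slc5a9, a sodium-coupled sugar transporter, then Skint8, Skint7, Skint1, Skint4, Skint3, Skint9, Skint2, Skint10, Skint6, Skint5 and Skint11. Skint4 (9 probes) ran from 111758445 to 111831255, Skint3 (7 probes) from 111906561 to 111972720 and Skint9 (6 probes) from 112058870 to 112105569 between their outermost probes. Skint6 was the most densely covered, with 42 probes from 112480584 to 112954460, and Skint5 had 30 probes from 113156355 to 113658273, of which 10 lay past the end of the stretch. Whether a probe lies in an exon or an intron is not analysed here, since no mm9 annotation was used.

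The sequences of 8 probes carry the pattern described below. Each is the brightest probe, by median kidney signal, of its gene and kind, is 60 bases long and is printed as in the array files, with no bases singled out. The first 5 lost signal in both channels on 3 arrays, and the last 3, named as not dim, lie among them and did not. The loss was partial for the Skint5 probe at 113531126, which stayed well above background in both channels on these arrays. Its kidney signal there was 1072 to 1256, against 3400 to 6066 on the other knockout arrays.

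Skint4, chr4:111796995-111797054: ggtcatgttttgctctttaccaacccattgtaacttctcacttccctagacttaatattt
Skint3, chr4:111953767-111953826: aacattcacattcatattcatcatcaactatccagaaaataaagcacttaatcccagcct
Skint9, chr4:112091820-112091879: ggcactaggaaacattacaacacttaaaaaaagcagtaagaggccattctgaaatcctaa
Skint6, chr4:112773092-112773151: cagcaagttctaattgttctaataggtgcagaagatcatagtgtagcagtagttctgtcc
Skint5, chr4:113531126-113531185: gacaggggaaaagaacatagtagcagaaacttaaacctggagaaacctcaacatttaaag
Skint6, not dim, chr4:112620067-112620126: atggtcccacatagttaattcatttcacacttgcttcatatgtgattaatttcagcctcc
Skint5, not dim, chr4:113410721-113410780: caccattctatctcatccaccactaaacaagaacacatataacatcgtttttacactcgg
Skint10, not dim, chr4:112388251-112388310: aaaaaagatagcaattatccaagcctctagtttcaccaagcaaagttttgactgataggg

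Base composition did not set the member probes far from the rest: their median GC content was 35.0%, against 36.7% over all probes. Of the 94 member probes, 0 shared a run of 20 bases, on either strand, with another probe of the array. How well they match other places of the genome, including Skint copies with no probe, is not analysed here, so the assignment of signal to a single gene of this family is uncertain.

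The 3 WT_plain tumours had high ratios at all 5 genes, and the other 17 tumours did not. Skint4 stood at 1.15, 1.15 and 1.13 (log2 tumour over kidney, mean of its probes, each array centred on its autosomal median) in WT_plain 1, 2 and 3. It ran from 0.07 to 0.33 in the 4 WT_Dmt1 tumours and from 0.08 to 0.17 in the 4 Dmt1Tg tumours. These ranges did not overlap with that of WT_plain, and the highest Skint4 value outside WT_plain was 0.48, in Ogg1KO 1.

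Skint4 in the knockout tumours was 0.00, 0.18 and 0.30 (MutyhKO 1, 2 and 3), 0.48, 0.39 and -0.27 (Ogg1KO 1, 2 and 3) and -0.35, 0.30 and 0.11 (Mth1KO 1, 2 and 3). In each of these genotypes the lowest tumour was the array named above as standing apart. Skint6 had the same layout, with 0.93, 0.89 and 1.00 in WT_plain, 0.02 to 0.08 in WT_Dmt1 and -0.04 to 0.10 in Dmt1Tg. Its knockout values were -0.03, 0.24 and 0.26 (MutyhKO), 0.14, 0.23 and -0.02 (Ogg1KO) and -0.31, 0.26 and 0.22 (Mth1KO).

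Skint3 and Skint9 were as high in WT_plain but varied more among the 3 tumours. Skint3 was 1.29, 0.84 and 1.30 there, and Skint9 was 0.83, 0.88 and 1.30. Skint5 was the least displaced member, at 0.46, 0.53 and 0.58, and its range still lay above that of every other group, whose highest tumour was Ogg1KO 2 at 0.28. The lowest single value of any member was Skint3 in Mth1KO 1, at -1.03, where its kidney signal was well above background at 0 of 7 probes and its tumour signal at 1, so it is not a measured level.

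**Figure D1:**
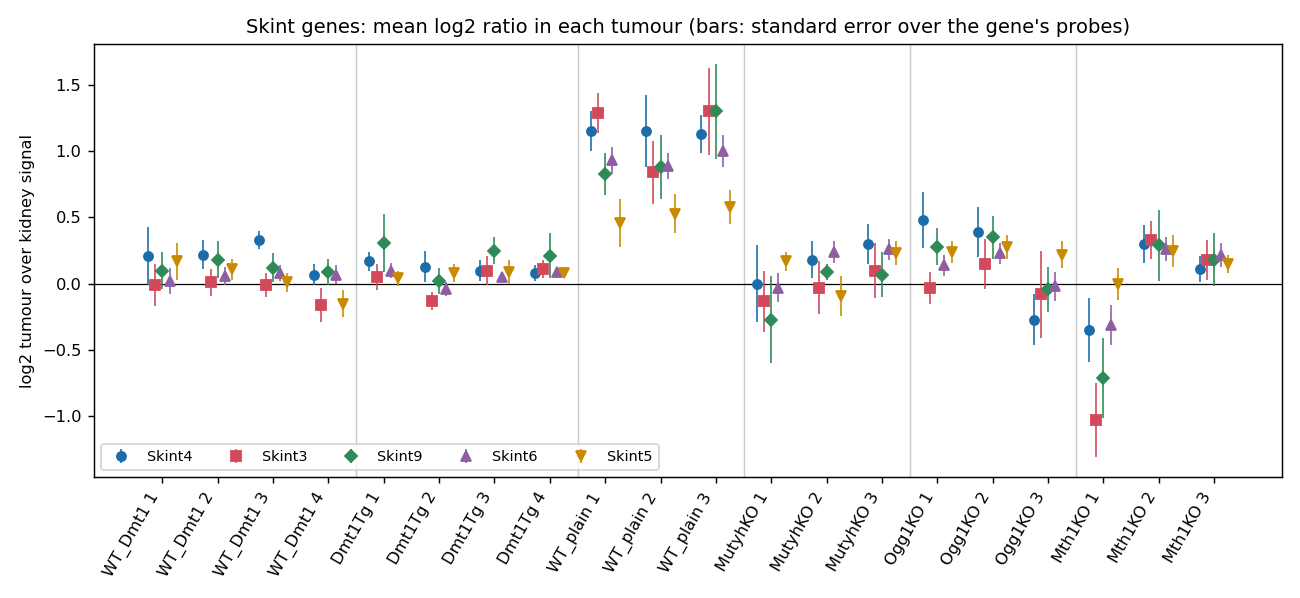
Mean log2 ratio of tumour over kidney signal (y axis) for each of the 5 Skint genes (colours and symbols) in each of the 20 tumours (x axis, groups parted by vertical lines), with standard errors over the gene's probes as bars. The WT_plain tumours sit between 0.46 and 1.30, while Mth1KO 1 has the lowest values, down to -1.03 for Skint3.

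Averaged over the 5 genes, the group levels were 0.95 ± 0.10 (SD, n = 3) in WT_plain, 0.08 ± 0.06 (n = 4) in WT_Dmt1 and 0.10 ± 0.06 (n = 4) in Dmt1Tg. MutyhKO stood at 0.07 ± 0.12, Ogg1KO at 0.15 ± 0.17 and Mth1KO at -0.01 ± 0.41 (SD, n = 3 each). The wide spread of the knockout groups came with MutyhKO 1, Ogg1KO 3 and Mth1KO 1: without them the remaining 2 tumours of each genotype averaged 0.14, 0.25 and 0.23.

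These knockout levels moved with the treatment of dim spots: with normexp background correction MutyhKO was at -0.03 and Mth1KO at -0.13, and with only spots well above background in both channels Mth1KO was at 0.10.

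Ordered by this average, Mth1KO 1 was lowest at -0.48 (standard error over probes 0.10), 0.43 below the next tumour. That place rests on ratios of signals near background. Mth1KO 1 was still lowest in the deposited value table (-0.22), with normexp background correction (-0.44) and with medians over probes (-0.61). With only spots well above background in both channels it was at 0.13. It was at 0.09 with only probes whose kidney signal was well above background on every array. Both filters take out most probes that were dim on this array, so they cannot place it. The value of Mth1KO 1 is not read as a level of its own. From MutyhKO 1 (-0.05) to Mth1KO 2 (0.29), 16 tumours followed each other with gaps of at most 0.07. After a gap of 0.57 came WT_plain 2 (0.86), WT_plain 1 (0.93) and WT_plain 3 (1.06), whose probe standard errors were 0.07 to 0.11. For comparison, 4 copies against 2, or 2 against 1, would give a log2 ratio of 1.00, 3 against 2 would give 0.58 and 1 against 2 would give -1. Within the second scan day alone the WT_plain tumours stayed apart, since the next tumour was again Mth1KO 2. The only other tumour on their slide was MutyhKO 1, so slide and group cannot be told apart for them.

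The gap depended on the background correction and on the spots used. With normexp correction of the mean signals, the 5-gene average was 0.35, 0.42 and 0.16 in WT_plain 1, 2 and 3, and Ogg1KO 3 rose to 0.30, which closed the gap. With patch spots kept the gap was 0.21. With only probes whose kidney signal was well above background on every array it was 0.14. This filter takes out most probes that were dim on MutyhKO 1, Ogg1KO 3 and Mth1KO 1, which had the higher WT_plain ratios, as described below. Only Skint5 and Skint6 then kept values on every array. The gap of 0.14 is therefore not one of the same 5 genes or of the same probes.

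The signals behind the ratios separated the tumours far more sharply than the ratios did. Each channel's log2 signal was set against the array's autosomal median and then against the probe's mean over the 20 arrays. That mean is pulled down by the 3 dim arrays, so most other arrays stand a little above 0.

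On MutyhKO 1, Ogg1KO 3 and Mth1KO 1 both channels were dim at the Skint genes, so their ratios compare 2 weak signals. Skint4 stood at -2.75, -2.83 and -3.20 in the kidney channel and at -3.02, -3.37 and -3.84 in the tumour channel on these 3 arrays. On the other tumours of the same genotypes it stood at 0.37 to 0.76 in the kidney channel and at 0.45 to 0.64 in the tumour channel. In the tumour channel no array stood between the dim arrays and 0.41, the value of WT_plain 3, and in the kidney channel only the WT_plain arrays lay between the dim arrays and 0.37.

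The other members followed on the same arrays. Skint3 was at -3.09, -3.08 and -2.87 in the kidney channel and at -3.35, -3.30 and -4.05 in the tumour channel (MutyhKO 1, Ogg1KO 3 and Mth1KO 1). Skint9 was at -2.55, -2.69 and -2.69 in kidney and at -3.04, -2.96 and -3.65 in tumour. Skint6 was at -2.18, -2.42 and -2.31 in kidney and at -2.41, -2.65 and -2.83 in tumour. Skint5 was dim to a lesser degree, at -0.91, -1.25 and -1.22 in kidney and at -0.91, -1.21 and -1.40 in tumour.

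Since many of these spots were not well above background, the levels above are uncertain and only a lower bound of the drop can be given. With such spots raised to the array's weakest well-measured signal, Skint4 was at least 4.9-fold lower in the kidney channel and at least 8.5-fold lower in the tumour channel on MutyhKO 1 than its probes' median over the 20 arrays. The bounds were 5.5-fold and 6.5-fold on Ogg1KO 3, and 4.0-fold and 11.0-fold on Mth1KO 1. Of the 9 Skint4 probes, the kidney signal was well above background at 2, 1 and 0 on these arrays, and the tumour signal at 1, 1 and 1. On each of the other 6 knockout arrays the tumour signal was well above background at all 9.

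On the WT_plain arrays the kidney channel alone was low. Skint4 stood at -0.34, -0.31 and -0.46 in the kidney channel of WT_plain 1, 2 and 3, and at 0.49, 0.52 and 0.41 in the tumour channel. The tumour values overlapped with the 0.45 to 0.64 of the 6 knockout arrays that were not dim, whereas the kidney values all lay below their 0.37 to 0.76. Skint6 showed the same, with -0.35, -0.21 and -0.40 in kidney and 0.37, 0.48 and 0.40 in tumour, against 0.43 to 0.46 in the tumour channel of those 6 arrays. Skint3 stood at -0.33, 0.04 and -0.47 in kidney and at 0.87, 0.81 and 0.71 in tumour, and Skint9 at -0.03, -0.05 and -0.58 in kidney and at 0.60, 0.63 and 0.50 in tumour. The high ratios of Skint4 and Skint6 in WT_plain thus went with a low kidney signal and a tumour signal like that of the other arrays of the day.

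**Figure D2:**
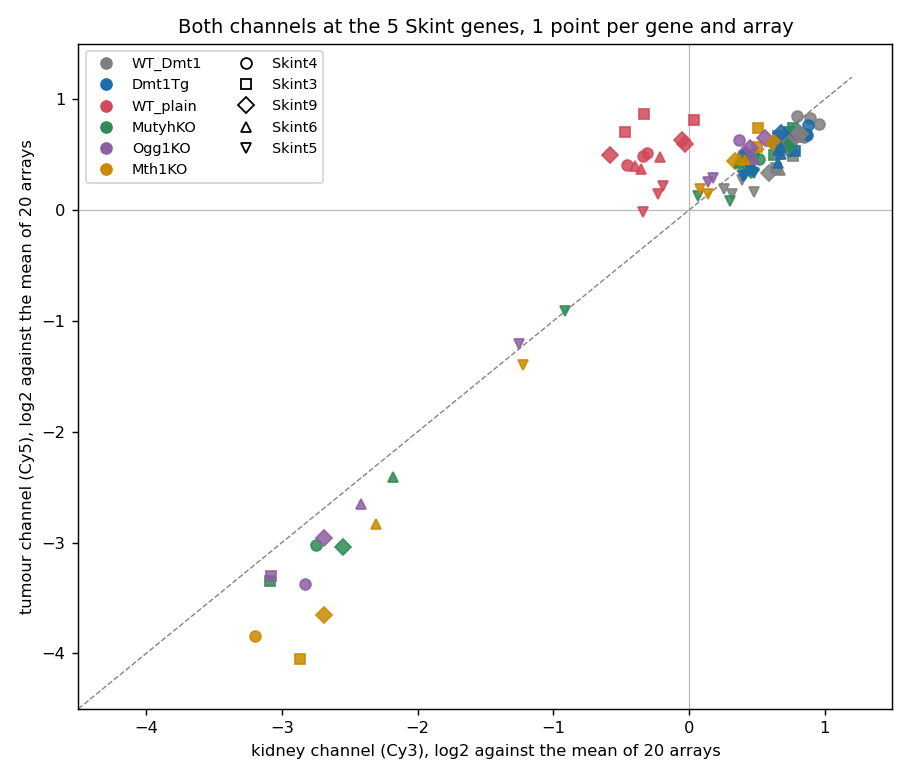
Kidney channel (x axis) against tumour channel (y axis) at the 5 Skint genes, as log2 signal against the mean of 20 arrays, 1 point per gene and array, with colour for the group and symbol for the gene and a dashed line of equality. A MutyhKO, an Ogg1KO and an Mth1KO array lie far down along the line, WT_plain arrays lie left of it with kidney values from -0.58 to 0.04, and the other arrays cluster at upper right.

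A single bright Skint6 probe, the fourth sequence above, shows the levels in scanner units (processed signal, kidney then tumour). In WT_plain 1, 2 and 3 it read 2804, 3552 and 2865 for kidney and 7607, 8228 and 7620 for tumour. In MutyhKO 1, Ogg1KO 3 and Mth1KO 1 it read 83, 87 and 114 for kidney and 58, 67 and 69 for tumour, none of them well above background.

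On the remaining 6 arrays of the second day its kidney signals were 4544 and 5427 (MutyhKO 2 and 3), 5113 and 4517 (Ogg1KO 1 and 2) and 4659 and 4677 (Mth1KO 2 and 3). The tumour signals of the same arrays were 7965, 8423, 7507, 6321, 7583 and 6926. On the first day the kidney signal ran from 7332 to 8429 in WT_Dmt1 and from 6595 to 7567 in Dmt1Tg. The dim and bright arrays therefore lay in 2 sets with no overlap, and WT_plain kidney lay between them.

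The Skint6 probe that was not dim, the sixth sequence, behaved otherwise on the same arrays. It read 1832, 1983 and 2220 for kidney and 1414, 1712 and 2448 for tumour on MutyhKO 1, Ogg1KO 3 and Mth1KO 1. On WT_plain 1, 2 and 3 it read 1330, 1602 and 1448 for kidney and 1433, 1550 and 1578 for tumour. Its signals on the 3 arrays were thus no lower than on the other knockout arrays, where kidney ran from 774 to 1200.

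**Figure D3:**
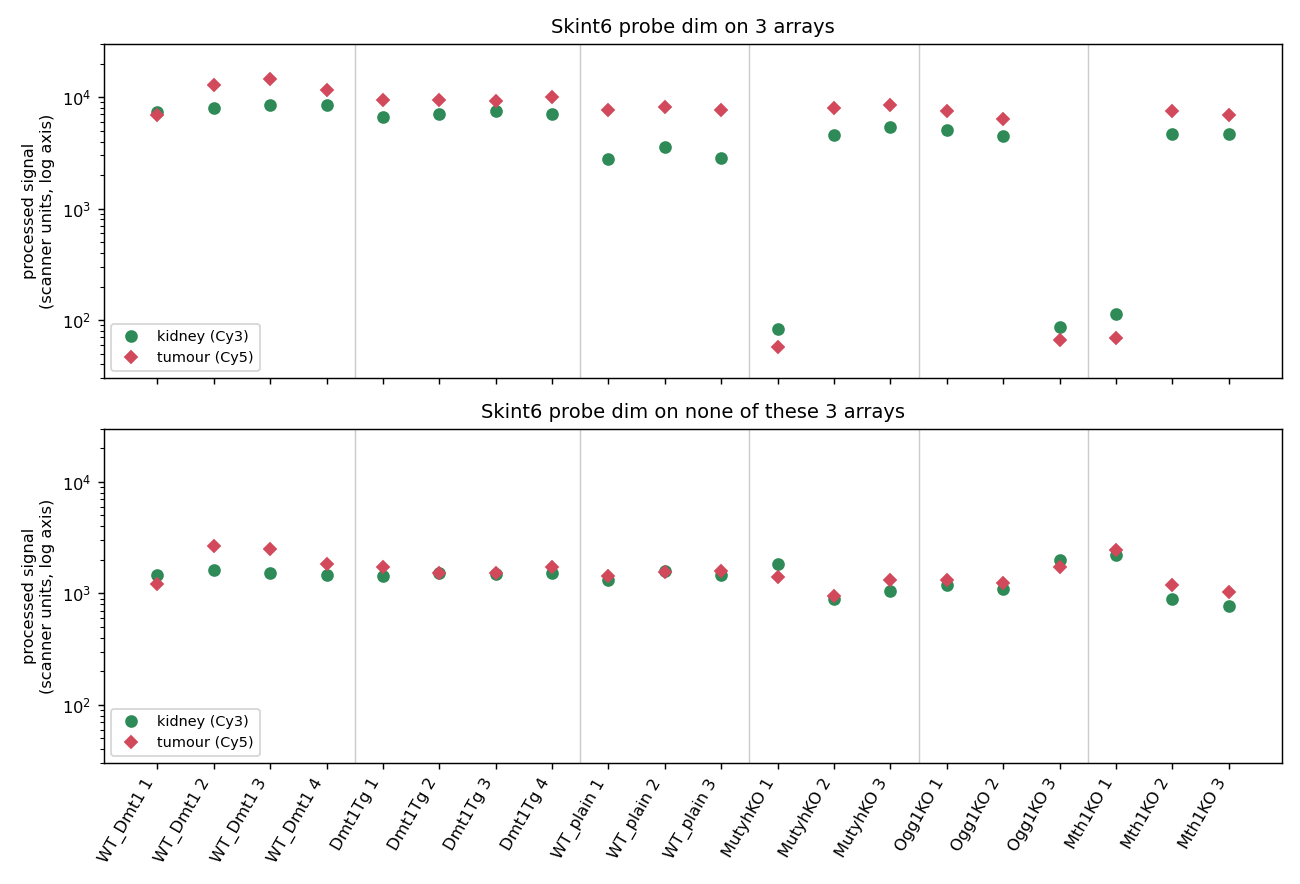
Processed kidney (green circles) and tumour (red diamonds) signal in scanner units on a log axis (y) by array (x), for the Skint6 probe at chromosome 4 that was dim on 3 arrays (top) and for a Skint6 probe that was not (bottom). In the top panel MutyhKO 1, Ogg1KO 3 and Mth1KO 1 sit between 58 and 114 in both channels, and kidney in WT_plain sits between 2804 and 3552.

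Another Skint6 probe is printed on 5 spots of each array, which gives the technical error. Its tumour signals spanned 22 to 56 on MutyhKO 1, 30 to 78 on Ogg1KO 3 and 17 to 46 on Mth1KO 1, and 973 to 1154 on MutyhKO 2. The log2 ratio over these spots was -1.14 ± 0.37 (SD over 5 spots) on Mth1KO 1, -0.80 ± 0.50 on MutyhKO 1 and -0.09 ± 0.73 on Ogg1KO 3. On WT_plain 3 it was 1.05 ± 0.21. On the arrays that were not dim the SD ran from 0.07 (WT_Dmt1 3) to 0.46 (WT_Dmt1 4). The scatter was thus wider than theirs on MutyhKO 1 and Ogg1KO 3 but not on Mth1KO 1. All 5 spots were dim in both channels on each of the 3 arrays.

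The dim Skint genes were rare among all genes. A gene was called dim on an array when its mean lay at least 1.5 log2 units below its mean of the 20 arrays in both channels, a size set after the values were seen. On Mth1KO 1, 4 of 9462 genes were dim (0.0423%), and all 4 were members: Skint3, Skint4, Skint6 and Skint9. MutyhKO 1 had 5 dim genes (0.0528%) and Ogg1KO 3 had 10 (0.106%), each including the same 4 members. These 4 were the only genes dim on all 3 arrays. The 16 other arrays apart from WT_plain 1 had 0 dim genes, and WT_plain 1, the array with the largest patch share, had 4, none of them a member.

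Probe by probe, 62 of the 94 member probes were dim in both channels on Mth1KO 1, where 0.0517% of all probes were. The count was 58 on MutyhKO 1 (0.819% of all probes) and 60 on Ogg1KO 3 (0.452%). In the stretch as a whole, 75, 74 and 74 of 140 probes were dim on these arrays. Mth1KO 1 had 88 dim probes on the entire array, 75 of them in this stretch. On the other 17 arrays 0 probes of the stretch were dim, except for 3 on WT_plain 1.

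The same probes were dim each time. Of 68 member probes that were dim on any of the 3 arrays, 50 (73.5%) were dim on all 3. All 7 Skint3 probes, 7 of 9 Skint4 probes, 4 of 6 Skint9 probes, 25 of 42 Skint6 probes and 7 of 30 Skint5 probes were dim on all 3. Over the whole array 64 of 2108 probes dim on any of them were dim on all 3 (3.0%). That share cannot serve as a contrast, since Mth1KO 1 had only 88 dim probes on the entire array. In addition, 63 of these 64 were probes of the stretch or of the members. The 3 arrays are also the ones with dim member genes, so these shares are a description.

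The dim probes did not lie together on the array surface. The 54 spots of the member probes dim on all 3 arrays were spread from row 2 to row 1046 of 1064 and from column 1 to column 169 of 170. The spots next to them had median channel levels of -0.03 to 0.01 on the 3 arrays, against -3.60 to -3.77 for the dim spots in the kidney channel and -4.04 to -4.69 in the tumour channel, all against the spot's median over the 20 arrays.

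Along the chromosome the dim probes formed several runs with other probes between them. The first probe dim on all 3 arrays started at 111742887, past Skint1. The probe before it, at 111726014, missed the size of 1.5 but was low too, at -1.37, -1.63 and -1.18 in kidney and at -1.03, -1.10 and -1.52 in tumour on MutyhKO 1, Ogg1KO 3 and Mth1KO 1, against 0.36 to 0.88 in both channels of the 6 other knockout arrays. This probe was also low on WT_plain 1 (-1.81 in kidney and -3.92 in tumour) and WT_plain 2 (-1.91 and -0.95), less so on WT_plain 3 (-0.15 and 0.37). Its low signal was thus not particular to the 3 dim arrays, and the border of the signal loss is not placed to a single probe. From 111742887 through Skint4, Skint3 and Skint9 to 112118262, probes were dim on all 3 arrays or on some of them without a break. After a few mixed probes came 8 from 112289418 to 112393977, over Skint2 and the start of Skint10, none of which was more than 1 log2 unit low in either channel on any of the 3 arrays.

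Skint10, which lies between Skint2 and Skint6, was mostly spared, with 5 of 7 probes dim on none of the 3 arrays and 1 (at 112402440) dim on all 3. Skint6 then held 25 probes dim on all 3 and 7 dim on none. In Skint5 the dim probes were mostly those nearest Skint6, up to 113251939, after which 9 probes in a row were dim on none. Of these 9, 4 were more than 1 log2 unit low in at least 1 channel of 1 of the arrays. Further on, the probe at 113440166 was dim on some of the arrays, and those at 113518071 and 113531126 were dim on all 3. Of the 122 probes from the first to the last dim position, over 1788 kb, 35 were dim on none of the 3 arrays. Of these 35, 13 were more than 1 log2 unit low in at least 1 channel of 1 of the arrays, and 22 were not, so loss of signal was graded among probes and did not reach all of them.

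**Figure D4:**
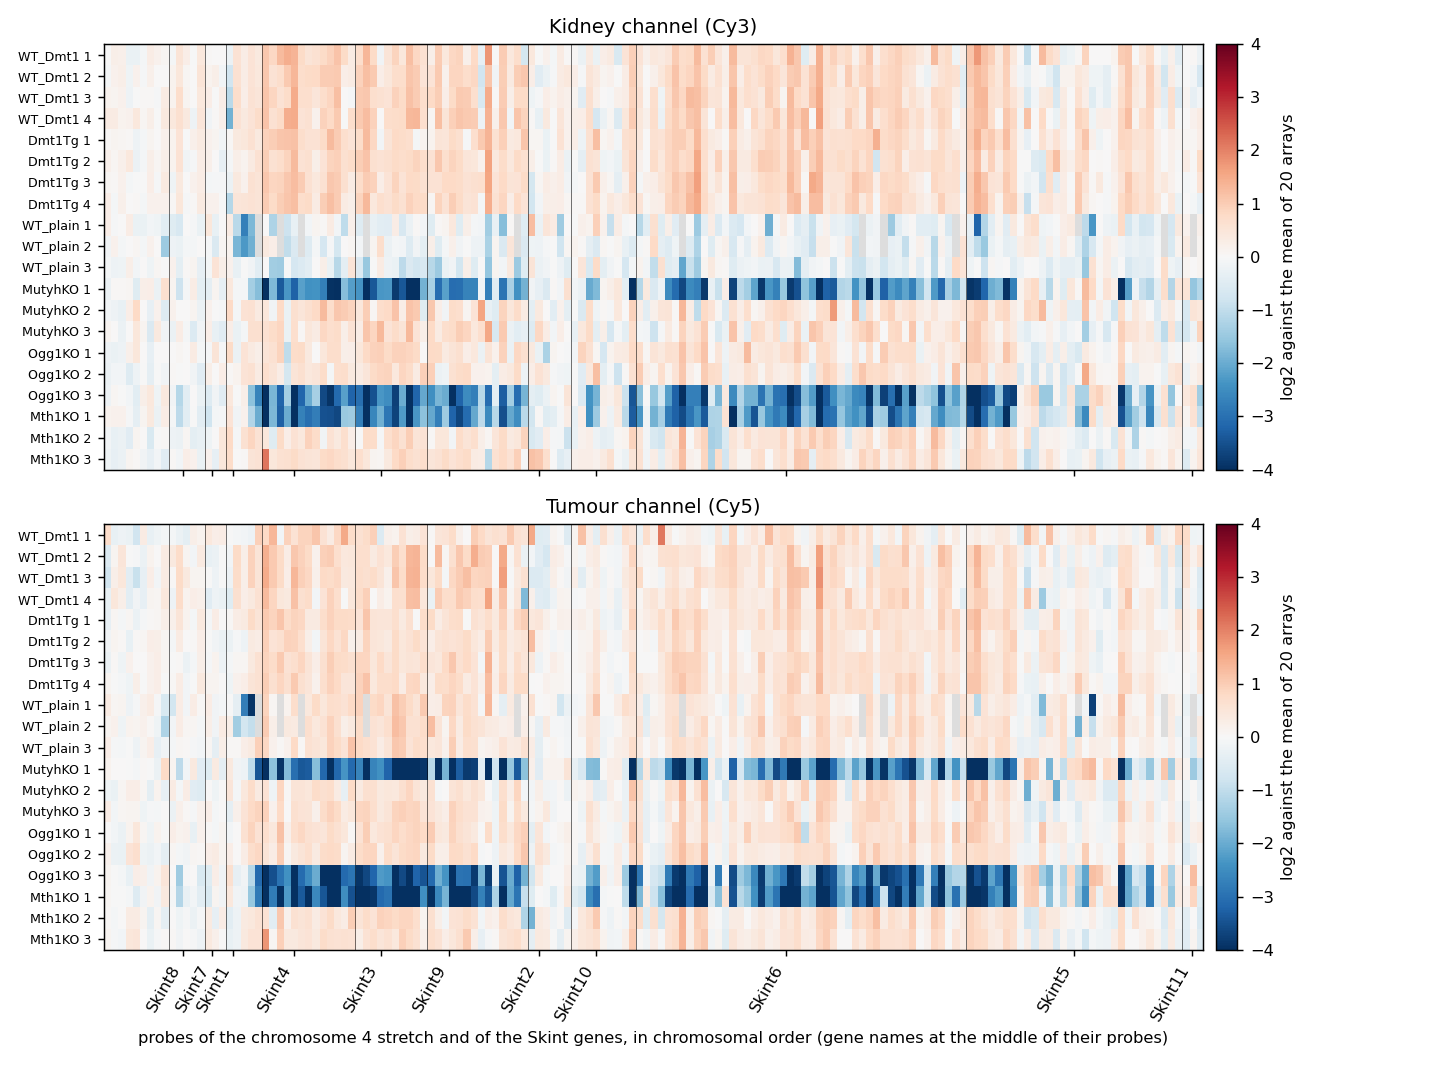
Log2 signal against the mean of 20 arrays (colour, blue for lower and red for higher, grey where spots were left out) in the kidney channel (top) and the tumour channel (bottom), with arrays as rows and the probes of the stretch and of the Skint genes as columns in chromosomal order. MutyhKO 1, Ogg1KO 3 and Mth1KO 1 show the same dim columns in both channels, with Skint2 and most Skint10 probes spared between them. The WT_plain arrays are pale blue mainly in the kidney channel, with single low probes in the tumour channel too.

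The 6 Skint genes outside the members had 0 dim probes on the 3 arrays, except Skint10 with 2, 2 and 1 of 7. Even so, 1 of 4 Skint8 probes and 2 of 3 Skint11 probes were more than 1 log2 unit low in at least 1 channel of 1 of these arrays. Skint8 (4 probes) was at -0.12, -0.42 and -0.39 in the kidney channel of MutyhKO 1, Ogg1KO 3 and Mth1KO 1, Skint7 (2 probes) at -0.13, -0.34 and -0.44, and Skint1 (2 probes) at 0.17, 0.19 and 0.20. Skint2 (3 probes) was at -0.35, -0.37 and -0.38. Skint10 was at -0.48, -0.56 and -0.51 in kidney and at -0.54, -0.61 and -0.97 in tumour. Skint11 (3 probes), past the end of the stretch, was at -0.72, -0.11 and -0.08.

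Around the cluster the average levels shifted little. Slc5a9, the nearest gene before Skint8 (3 probes), was at 0.08, 0.15 and 0.10 in kidney and at -0.06, 0.07 and -0.04 in tumour on the 3 arrays. Spata6, which reaches across the start of the stretch with 11 probes, was at 0.03, -0.04 and 0.02 in kidney. The 318 probes within 2 Mb on either side of the stretch averaged -0.05, -0.08 and -0.03 in kidney and -0.05, -0.07 and -0.05 in tumour. They include Skint11 and the 10 Skint5 probes past the end of the stretch, some of them dim. Their log2 ratio was 0.04 to 0.06 in the 3 WT_plain tumours.

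The probes that were dim on the 3 arrays were also the ones with a low kidney signal in WT_plain. The probes were sorted by the 3 dim arrays, and the WT_plain arrays entered that sorting only through the mean of 20 arrays, but the genes themselves had been chosen for their WT_plain ratio, so this is a description. Over the stretch and the members, 63 probes were dim on all 3 arrays, 62 on none and 25 on some. At the 63 dim probes the median log2 ratio was 1.04, 1.14 and 1.25 in WT_plain 1, 2 and 3, and at the 62 probes dim on none, 18 of them partly low by the measure above, it was 0.13, 0.22 and 0.24. In MutyhKO 2 and 3 the same medians were 0.16 and 0.19 at the dim probes and 0.02 and 0.14 at the probes dim on none.

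The split held in the kidney signal itself. At the 63 probes the WT_plain kidney medians were -0.18, -0.25 and -0.43, while MutyhKO 2 and 3, Ogg1KO 1 and 2 and Mth1KO 2 and 3 had 0.66, 0.68, 0.69, 0.55, 0.57 and 0.65. At the 62 probes dim on none the WT_plain kidney medians were -0.10, -0.05 and -0.07 and those of the other 6 arrays ran from -0.07 to 0.04. The tumour medians at the 63 probes were 0.58, 0.60 and 0.63 in WT_plain and 0.60 to 0.70 on the other 6.

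Dimness on the WT_plain arrays limits these ratios. Of the 63 probes, 56 were outside the patches on WT_plain 1 and on WT_plain 2, and 36, 34 and 34 were well above background in both channels on WT_plain 1, 2 and 3. Over those alone the median log2 ratio was 0.87, 1.08 and 1.09. The 62 probes dim on none had the same limit, with 36, 37 and 40 well above background in both channels and medians of 0.18, 0.14 and 0.14 over these. On MutyhKO 1, Ogg1KO 3 and Mth1KO 1 only 3, 3 and 1 of the 63 passed, so at these probes their ratios are not measured levels.

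**Figure D5:**
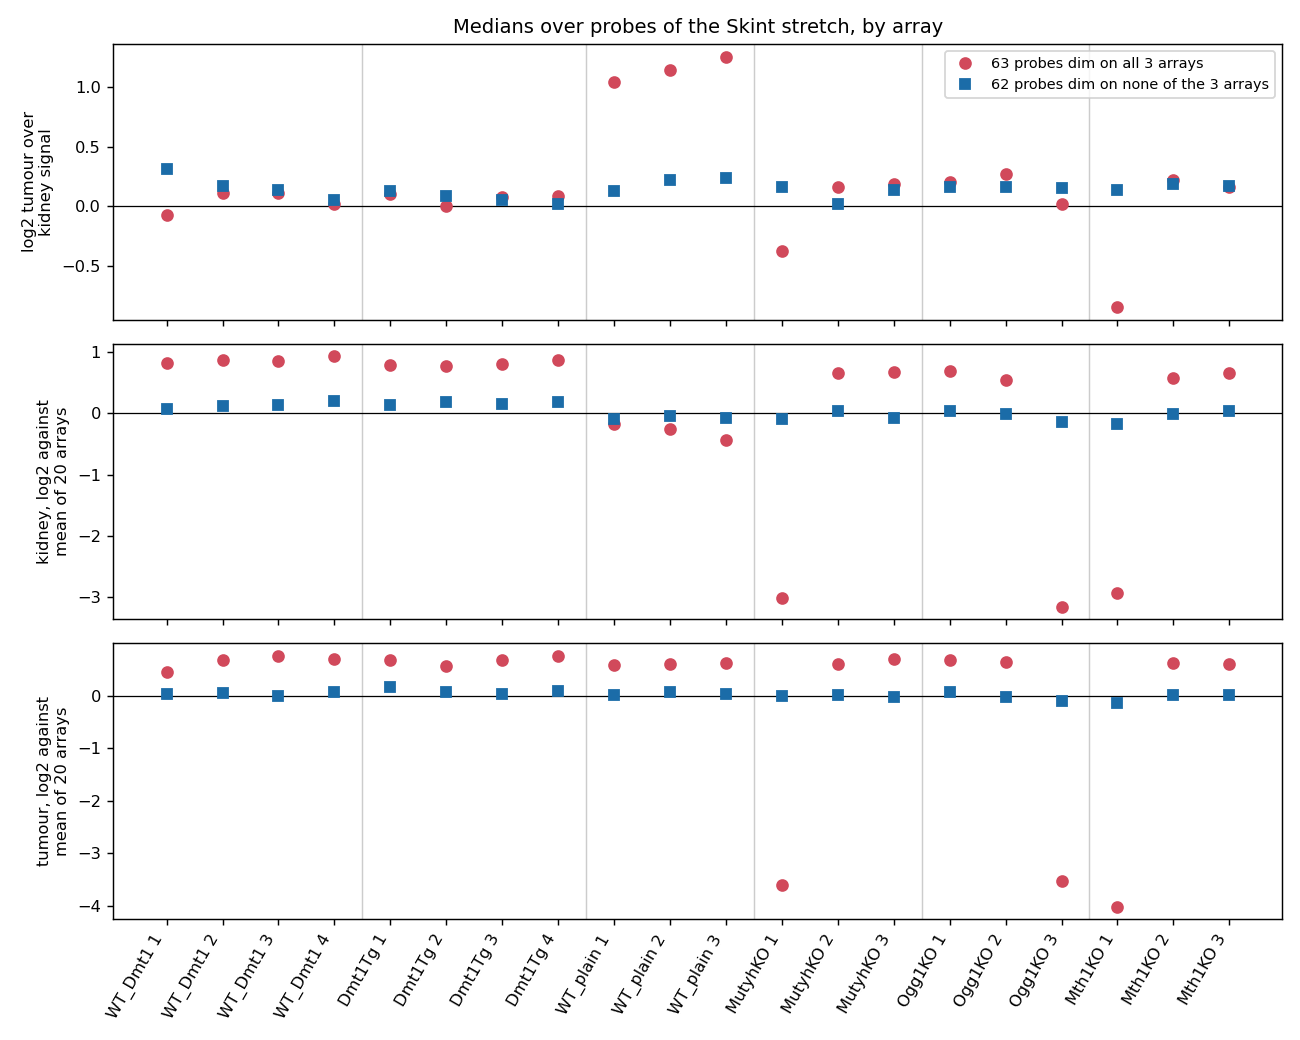
Medians by array (x axis) over the 63 probes dim on all 3 arrays (red circles) and the 62 dim on none (blue squares), for the log2 ratio of tumour over kidney (top), the kidney channel (middle) and the tumour channel (bottom), both channels as log2 signal against the mean of 20 arrays. In WT_plain the ratios of the red set are 1.04 to 1.25 and those of the blue set 0.13 to 0.24, and the difference lies in the kidney panel.

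Skint5 shows the split within 1 gene. Its 7 probes dim on all 3 arrays had median ratios of 1.19, 1.10 and 0.85 in WT_plain 1, 2 and 3, and its 19 probes dim on none had 0.09, 0.09 and 0.13. Of the 7, 5, 4 and 5 were well above background in both channels there, with medians of 0.79, 1.09 and 0.85. Of the 19, 8, 9 and 8 were, with medians of 0.01, -0.25 and -0.01, and 7 of the 19 were partly low by the measure above. The gene's modest average in WT_plain thus joins probes near 1 with probes near 0. In Skint6 the 25 dim probes had 1.02, 1.15 and 1.16 and the 7 probes dim on none 0.23, 0.27 and 0.13. Only 3 of the 7 were well above background in both channels on each WT_plain array, with medians of 0.52, 0.27 and 0.13. Those 7 were still below the mean of 20 arrays on the dim arrays, with kidney medians of -0.31, -0.74 and -1.23 on MutyhKO 1, Ogg1KO 3 and Mth1KO 1, so they did not all keep their full signal.

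Counted probe by probe, 45, 45 and 54 of the 94 member probes on WT_plain 1, 2 and 3 had a kidney signal at least 0.5 log2 units below the probe's median of the 20 arrays with the tumour signal within 0.5 of its own. The share of all probes with this was 5.17%, 5.15% and 7.43%. On the other second-day arrays that were not dim, 3 to 11 member probes met it (3.2% to 11.7%), near the 6.0% to 10.1% of all probes there.

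By genotype the states did not run together. In each of the 3 knockout genotypes 1 of 3 tumours was dim in both channels and 2 were not. All 3 WT_plain tumours had the low kidney signal alone. On the 8 arrays of the first day 0 member probes were dim and 0 to 3 of 94 had the low kidney signal, which 1.9% to 4.9% of all probes had there. On each dim array the kidney DNA, labelled as non-neoplastic, was dim at the same genes as the tumour DNA.

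Genotypes that played no part in choosing the genes were tested with limma over 9462 genes, with Benjamini-Hochberg adjustment. Between Dmt1Tg and WT_Dmt1, 0 of the 5 members passed an adjusted p of 0.05, where 0% of all genes did and 1007 genes had an unadjusted p under 0.05. The differences ran from -0.09 (SE 0.14) for Skint4 to 0.08 (SE 0.20) for Skint3, and the 95% interval of Skint5 was -0.13 to 0.20. The standard errors pool all 20 tumours, the dim arrays included. With only these groups in the fit they were 0.07 for Skint3 and 0.07 for Skint4, the interval of Skint6 was -0.13 to 0.12, and 0 members passed. The median difference was 0.04 over the members and -0.03 over all genes. Each of these groups fills its own slide, so slide and genotype cannot be told apart.

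Between MutyhKO and WT_Dmt1, 0 of 5 members passed, where 9.88% of all genes did and 2619 genes had an unadjusted p under 0.05, and 0 members had an unadjusted p under 0.05. The member differences ran from -0.16 (SE 0.18) for Skint9 to 0.10 (SE 0.11) for Skint6, with a median of 0.02 against -0.06 over all genes. Between MutyhKO and Dmt1Tg 0 of 5 passed, where 0% of all genes did and 1317 genes had an unadjusted p under 0.05. There the largest difference was -0.24 (SE 0.18, adjusted p = 0.59 by limma) for Skint9. MutyhKO includes the dim MutyhKO 1 and was scanned on another day than WT_Dmt1 and Dmt1Tg. With only probes whose kidney signal was well above background on every array, Skint5 passed between MutyhKO and WT_Dmt1 (0.28, SE 0.07, adjusted p = 0.0226 by limma), and 2 members could still be tested.

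The day of the scan moved with a smaller difference. Over all member probes, the kidney channel stood at 0.56 to 0.64 on the first-day arrays and at 0.29 to 0.41 on the 6 second-day knockout arrays that were not dim. The tumour channel stood at 0.37 to 0.51 and 0.34 to 0.45. Genotype and day cannot be told apart here.

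Among 8855 genes on other chromosomes, those whose ratios over the 20 tumours were most like the average of the members all ran opposite to it. They were Acadm, an enzyme of fatty acid oxidation (r = -0.92), Mink1, a kinase (-0.91), Hoxa3, a homeobox factor (-0.89), Cfi, complement factor I (-0.88) and Sema4b, a semaphorin (-0.88). Without the WT_plain tumours these correlations were -0.72, -0.55, -0.60, -0.53 and -0.67. Each gene had 3 or 4 probes, and all values share the same 20 arrays, including the 3 on which the members' ratios are not measured levels.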

How the data were processed

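Each of 20 arrays gave tumour (Cy5) and kidney (Cy3) signals on 180880 spots. Per the submitters' processing notes the files came from Agilent Feature Extraction 10.7, and per the file headers from version 10.7.1.1 with protocol CGH_107_Sep09 and mm9 positions. The deposited intensity of each channel is, per the file headers, a processed signal after background subtraction and dye normalization, and the deposited ratio column holds the log10 of Cy5 signal divided by Cy3 signal. The series' deposited value table holds log2 ratios that differed from it by at most 5.25e-07 after rescaling, so its scale and direction are known. Ratios here were computed from the processed signals. The deposited ratio differed from them by more than 0.01 on the log2 scale at 0 spots well above background in both channels and at 1.97% of the other spots. No column belonged to another sample (0). Precision is limited by the number of arrays.

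Control spots, outlier spots (101 to 685 per array) and spots in surface patches (median of a window of 21 by 21 spots beyond 0.8 in size) were left out. Log2 ratios were shifted so that each array's autosomes had a median of 0, without loess or quantile normalization, and spots of a probe were averaged. Genes are means over probes under the names in the files. Groups were compared with limma's lmFit and eBayes in 1 fit of all 20 tumours, tested on simulated data first. The text names the 5 genes, the other genes of the stretch and its borders, and the 5 genes off chromosome 4 most like them. The members, lists and tests were chosen with earlier results of these data known, and the size that counts as dim, the probe sets and the printed probes after seeing the values. Alternatives covered patches, centring, normexp with an offset of 50, the value table, dim probes, probe minimums of 1 and 5, flank level, samples in the fit, replicate number and each tumour left out. Analyses used R 4.3.3, limma 3.58.1, Python 3.11.15, numpy 2.4.6, pandas 2.3.3 and matplotlib 3.10.9.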

Additional observations from a re-analysis of the deposited data

Results flagged for a closer look

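In the groups of 4 tumours, 32 sets of member values were examined for a sample far from the other 3, and 5 were found, where chance gives about 1 in 20. Skint3 had a log2 ratio of -0.16 in WT_Dmt1 4, while the other WT_Dmt1 tumours lay between -0.01 and 0.01. The average of the 5 members was -0.01 in WT_Dmt1 4 against 0.10 to 0.12 in the rest of its group. In Dmt1Tg 2 that average was 0.01 against 0.12 to 0.14. The kidney channel of Skint4 was 0.72 in Dmt1Tg 2 against 0.86 to 0.88. The tumour channel of Skint9 was 0.34 in WT_Dmt1 1 against 0.65 to 0.70. All 5 are small beside the differences described above.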

How the results depend on the processing

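No member passed in any of the 3 limma comparisons under the replicate block (0 of 5 in each), and replicate numbers did not pair the tumours, since same-numbered tumours of 2 groups correlated by -0.17 to 0.16 in their deviations. With the block 1, 796 and 1 of all genes passed (Dmt1Tg against WT_Dmt1, MutyhKO against WT_Dmt1 and MutyhKO against Dmt1Tg), against 0, 935 and 0 without it. Between MutyhKO and WT_Dmt1, 1 of 2 testable members, Skint5, passed with kidney signal well above background on every array, and 1 of 2 with only spots well above background in both channels (0.19, adjusted p = 0.0471), an alternative chosen after seeing the data. The cause was not tested. Counts over all genes moved more: 43 passed between MutyhKO and WT_Dmt1 with only these groups in the fit, 607 with normexp, 368 without MutyhKO 2, 554 without WT_Dmt1 2 and 454 without WT_Dmt1 3. Between Dmt1Tg and WT_Dmt1, 107 passed with normexp, 30 without WT_Dmt1 4, 4 with only these groups and 2 with genes of 1 probe, and between MutyhKO and Dmt1Tg, 128 without MutyhKO 1, 8 with kidney well above background and 2 with normexp. Uncalled differences turned sign for Skint6 between Dmt1Tg and WT_Dmt1 with the flank level subtracted (0.01), for Skint3 between MutyhKO and WT_Dmt1 centred on the mode (-0.03), for Skint6 with kidney well above background against WT_Dmt1 (-0.17) and Dmt1Tg (-0.02), and for Skint3 (0.01) and Skint4 (-0.09) between MutyhKO and Dmt1Tg with normexp. Leaving out 1 tumour at a time kept 0 members called (0 to 0) in each comparison. The differences then ranged, between Dmt1Tg and WT_Dmt1, from -0.02 to 0.08 for Skint5 and -0.02 to 0.02 for Skint6. They ranged from -0.04 to 0.08 for Skint3 and -0.12 to 0.03 for Skint4 between MutyhKO and WT_Dmt1, and from -0.03 to 0.12 for Skint4 and -0.03 to 0.13 for Skint5 between MutyhKO and Dmt1Tg. The level of the 5 members then ranged from 0.06 to 0.11 in WT_Dmt1, 0.08 to 0.12 in Dmt1Tg, 0.90 to 1.00 in WT_plain, 0.01 to 0.14 in MutyhKO, 0.09 to 0.25 in Ogg1KO and -0.16 to 0.23 in Mth1KO, and the gap below WT_plain from 0.57 to 0.65. With normexp the level was -0.01 in WT_Dmt1, -0.02 in Dmt1Tg, 0.31 in WT_plain, -0.03 in MutyhKO and -0.13 in Mth1KO, and the gap -0.14. With kidney well above background it was 0.01 in Dmt1Tg, 0.37 in WT_plain and 0.11 in Mth1KO, and the gap 0.14. Only Skint5 and Skint6 kept values on every array under that filter, which also took out most of the dim probes. These are thus not levels of the same 5 members. Mth1KO turned to 0.08 in the value table and to 0.10 with spots well above background in both channels, where Mth1KO 1 has no Skint3 or Skint4 value. WT_plain stood at 0.74 with patch spots kept (gap 0.21) and at 0.84 with spots well above background in both channels. Set against the median of 20 arrays, the tumour channel was -0.07 in WT_plain 1 and -0.01 in WT_plain 3. Signal near background on the 3 dim arrays limits every ratio there.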
